A study of Mus musculus with 8 samples.

Results

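Alveolar type 1 cells are the thin, flat cells that cover most of the gas exchange surface of the lung, and the genes described here are 8 genes used as markers of them: *Ager*, *Hopx*, *Pdpn*, *Rtkn2*, *Clic5*, *Emp2*, *Akap5* and *Spock2*. They were taken as a list of symbols, matched to the Ensembl identifiers of the count files, and make up 8 of the 55416 genes listed there. All 8 had enough counts to be tested, among 18560 tested genes. The genes need not move together, so each was followed on its own in every mouse.

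Type 1 cells share a basement membrane with the capillaries beside them, and their thinness keeps the path for oxygen short. They can be renewed from cuboidal type 2 cells, which make surfactant, through a passing state marked by keratins and stress genes. The transcription factor NKX2-1 and the YAP and TAZ coactivators with their TEAD partners are known to uphold the type 1 state.

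Lung RNA was sequenced from 8 female C57BL/6 mice (C57BL/6J in the methods) aged 6 to 8 weeks. The 3 control mice (numbered 1, 2 and 4) received the solvent DMSO and saline, and the 3 LPS mice (1, 6 and 7) received bacterial lipopolysaccharide at 35 mg/kg into the abdomen. The 2 dual-treatment mice (2 and 5) received the PAD inhibitor YW3-56 at 10 mg/kg shortly before the same dose of LPS. Lungs were taken 24 h after LPS. PADs are enzymes that convert arginine to citrulline, and PAD4 does so in histones. The paper describes the inhibitor as acting on the whole PAD family, to differing degrees. Which of these enzymes bears on the values given here was not tested. The methods do not say that LPS mice were given DMSO, and no group received YW3-56 alone. The library with the fewest counts held 19061949 and the one with the most 20908608. Values are CPM, a gene's count as a share of its library on a fixed scale, after TMM normalization, which scales libraries so that most genes agree. A gene was called changed where the quasi-likelihood test of edgeR gave an adjusted p under 0.05, and log2FC is the fitted log2 fold change with its standard error (SE). Unsorted tissue from 1 side of the lung was sequenced, so fewer type 1 cells and less RNA per cell cannot be told apart.

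All 8 genes were present in each control lung, the lowest being *Pdpn* in control mouse 4 at 107 CPM. Presence in unsorted tissue does not show which cells made them, and several are also made outside type 1 cells: podoplanin by lymphatic endothelium and mesothelium, for example. Divided by exon length, the control means in CPM per kb were 1064 for *Ager*, 233 for *Hopx*, 145 for *Emp2*, 109 for *Spock2*, 88.4 for *Clic5*, 57.3 for *Akap5*, 31.2 for *Rtkn2* and 23.6 for *Pdpn*. No neighbours in that order overlapped between control mice. With LPS the order of the length-scaled levels changed. *Rtkn2* became the lowest at 0.547 CPM per kb and *Akap5* the next at 6.77, while *Pdpn* at 45.1 stood above *Clic5* at 30.5. The ranges of *Spock2* and *Emp2*, and of *Pdpn* and *Clic5*, overlapped among LPS mice. In dual-treated lungs *Rtkn2* remained the lowest on the length scale at 14.9 CPM per kb, and *Emp2*, *Spock2* and *Clic5* overlapped in turn.

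**Figure D1:**
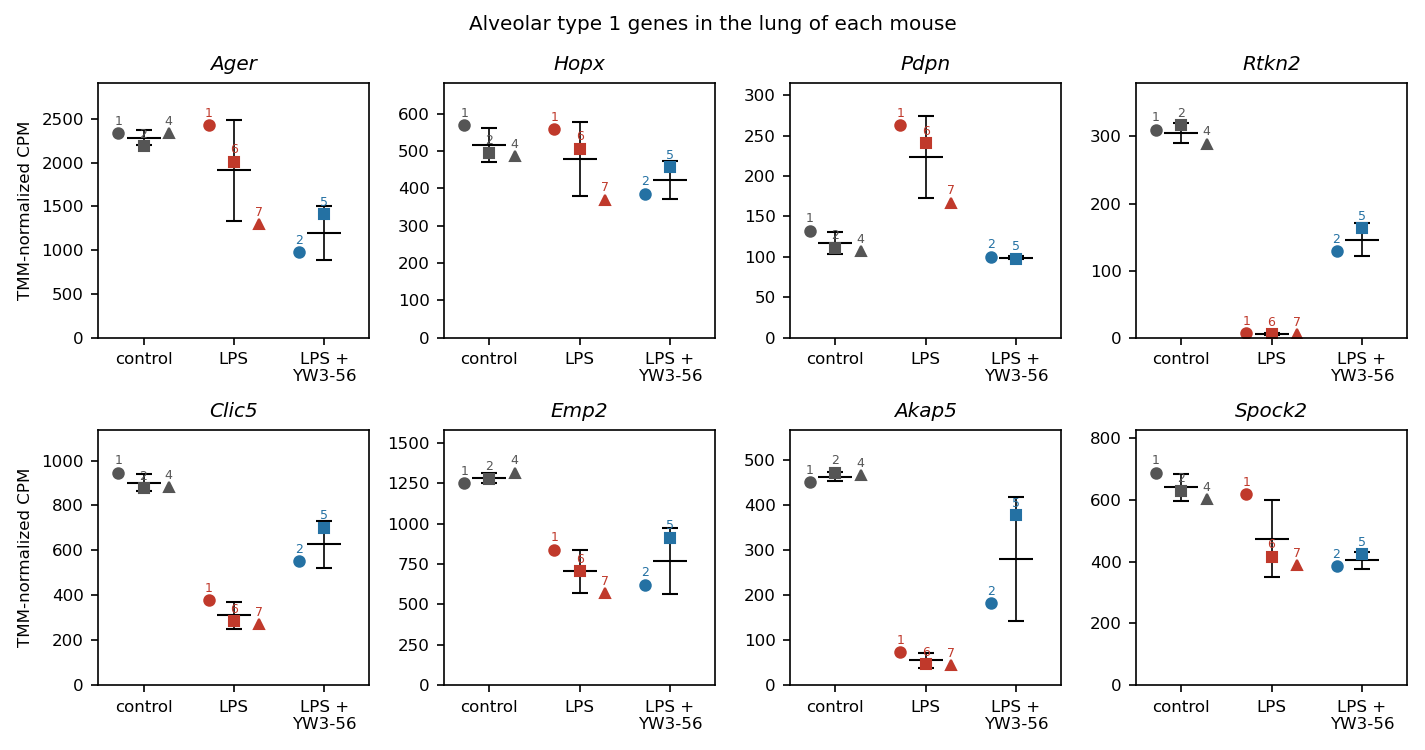
TMM-normalized CPM of each gene (vertical axis, from 0) in control, LPS and dual-treated lungs, with 1 point per mouse marked by its number, and the group mean and SD as black bars. *Rtkn2* lies between 289 and 317 in control mice and between 4.50 and 6.59 in LPS mice, while *Hopx* values of control and LPS mice overlap.

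The first comparison sets LPS lungs against control lungs. As far as the methods state, these groups differ in LPS and also in DMSO, which the control mice received. These cannot be told apart. *Rtkn2*, *Akap5*, *Clic5*, *Emp2* and *Spock2* fell, *Pdpn* rose, and *Ager* and *Hopx* were not called. The falls ranged from 57.1-fold for *Rtkn2* to a log2FC of -0.43 for *Spock2*. The 6 genes called stand against 66.5% of all tested genes, so a call as such does not set the list apart. By direction, 5 were lower (33.9% of all genes) and 1 higher (32.6%). Without overlap between the groups, 4 were lower (37.3%) and 1 higher (34.7%). With the thresholds of the study's methods (fold change above 2, p under 0.05), read as unadjusted and applied to the edgeR p-values, 3 were called (40.1% of all genes), with 3 lower (21.8%) and 0 higher (18.3%). The median log2FC of the 8 genes was -0.65, and that of all tested genes -0.010.

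The second comparison asks what differed from control when YW3-56 was given before LPS. *Ager*, *Rtkn2*, *Emp2* and *Spock2* were called lower and none higher, or 4 of 8 against 16.1% of all tested genes, of which 7.02% were lower and 9.13% higher. For each of the 8 genes, both dual-treated mice lay below every control mouse, a pattern found in 26.2% of all tested genes, and 0 lay above (26.1%). By these thresholds of fold change and unadjusted p 1 gene, *Rtkn2*, was called (10.5% of all genes, with 3.43% lower and 7.04% higher). The median log2FC of the 8 genes was -0.70, and that of all tested genes 0.0042.

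The third comparison sets dual-treated against LPS lungs. These groups differ in YW3-56 and, as far as the methods state, in its solvent DMSO, and these cannot be told apart. *Rtkn2*, *Akap5* and *Clic5* were higher, *Pdpn* and *Ager* were lower, and *Emp2*, *Hopx* and *Spock2* were not called. The 5 calls stand against 59.1% of all tested genes, with 3 higher (31.7%) and 2 lower (27.4%). Without overlap, 3 were higher (37.9%) and 1 lower (32.9%). By these thresholds of fold change and unadjusted p 3 were higher (20.6%) and 1 lower (14.7%), beside 35.3% of all genes called. The median of the 8 genes was -0.030, beside 0.060 for all tested genes. Of the 6 genes called with LPS, 4 were called in the opposite direction here, beside 75% of all genes called with LPS. The 3 comparisons share mice, so that a control or LPS mouse that is high moves more than 1 of them.

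*Rtkn2* (ENSMUSG00000037846, chromosome 10 of GRCm39, 67815390 to 67895570, plus strand) had 310.3, 317 and 289 CPM in control mice 1, 2 and 4, 6.59, 4.50 and 4.97 in LPS mice 1, 6 and 7, and 129 and 163 in dual-treated mice 2 and 5. The 3 groups did not overlap in any pair, and the LPS mice were far below all others. Their counts were 111, 78 and 89. *Rtkn2* was 57.1-fold lower with LPS than in control (log2FC -5.83, SE 0.174, adjusted p = 8.37e-08, edgeR quasi-likelihood test). Dual-treated lungs held 27.3-fold more than LPS lungs (log2FC 4.77, SE 0.174, adjusted p = 4.14e-07, same edgeR test). The dual-treated mean was 47.8% of the control mean, and that shortfall also passed the test (log2FC -1.07, SE 0.158, adjusted p = 0.00225, same edgeR test). All 3 calls held under each of the 19 alternatives tried. A noncoding gene on the other strand, Gm16212, shares 307 exonic bases with it.

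*Akap5* (ENSMUSG00000021057, chromosome 12, 76371613 to 76382157, plus strand) encodes an anchoring protein that holds protein kinase A and the phosphatase calcineurin at the cell membrane. Control mice 1, 2 and 4 had 452, 473 and 467 CPM, LPS mice 1, 6 and 7 had 73.2, 46.7 and 44.7, and dual-treated mice 2 and 5 had 182 and 378. Again no 2 groups overlapped, but the dual-treated mice lay far apart from each other. With LPS *Akap5* was 8.46-fold lower (log2FC -3.08, SE 0.282, adjusted p = 1.2e-05, edgeR quasi-likelihood test). Dual-treated lungs were above LPS lungs by a log2FC of 2.35 (SE 0.291, adjusted p = 0.000128, same edgeR test). Against control the dual-treated value did not pass (log2FC -0.73, SE 0.296, adjusted p = 0.127, same edgeR test). That value rests on which dual-treated mouse is kept: it was -1.38 and called without mouse 5, and -0.33 and not called without mouse 2, with the adjusted p over all alternatives between 0.00638 and 0.803.

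*Clic5* (ENSMUSG00000023959, chromosome 17, 44445659 to 44591590, plus strand) encodes a member of the chloride intracellular channel family that is found with ezrin at the actin cortex. Its values were 947, 878 and 880.3 CPM in control mice 1, 2 and 4, 379, 284 and 270.1 in LPS mice 1, 6 and 7, and 552 and 701 in dual-treated mice 2 and 5. The dual-treated mice lay between the other groups without overlap. *Clic5* fell with LPS (log2FC -1.54, SE 0.156, adjusted p = 2.23e-05, edgeR quasi-likelihood test) and dual-treated lungs exceeded LPS lungs (log2FC 1.01, SE 0.168, adjusted p = 0.000727, same edgeR test). Against control the dual-treated log2FC of -0.53 lay near the threshold (SE 0.173, adjusted p = 0.0691, same edgeR test). It was called in 9 of 19 alternatives, among them those without LPS mouse 1 (-0.52), without LPS mouse 7 (-0.53) and without dual-treated mouse 5 (-0.74), and its adjusted p ranged from 0.0093 to 1.

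*Emp2* (ENSMUSG00000022505, chromosome 16, 10099459 to 10131832, minus strand) encodes a membrane protein of the PMP22 family. It had 1251, 1278 and 1316 CPM in control mice 1, 2 and 4, 839, 704 and 567 in LPS mice 1, 6 and 7, and 621 and 912 in dual-treated mice 2 and 5. Every treated mouse was below every control mouse, and the LPS and dual-treated mice overlapped. *Emp2* fell with LPS (log2FC -0.87, SE 0.178, adjusted p = 0.00197, edgeR quasi-likelihood test). In dual-treated lungs it was also below control (log2FC -0.74, SE 0.202, adjusted p = 0.0361, same edgeR test). Dual-treated and LPS lungs were not called different (log2FC 0.12, SE 0.198, adjusted p = 0.608, same edgeR test), with a 95% interval from -0.32 to 0.57. That value was -0.20 without dual-treated mouse 5 and 0.35 without dual-treated mouse 2.

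*Ager* (ENSMUSG00000015452, chromosome 17, 34816827 to 34819910, plus strand) encodes RAGE, a cell surface receptor that type 1 cells carry in large amounts. Control mice 1, 2 and 4 had 2336, 2186 and 2338 CPM. LPS mice 1, 6 and 7 had 2432, 2011 and 1296, and dual-treated mice 2 and 5 had 979 and 1411. LPS mouse 1 was above all control mice and LPS mouse 7 was below the higher dual-treated mouse, so the LPS group overlapped both others. The LPS value was not called against control (log2FC -0.26, SE 0.225, adjusted p = 0.332, edgeR quasi-likelihood test). It was -0.46 without LPS mouse 1 and -0.032 without LPS mouse 7, not called in either case, and its adjusted p over all alternatives ranged from 0.0236 to 0.95. Dual-treated lungs had less *Ager* than control lungs (log2FC -0.94, SE 0.258, adjusted p = 0.0376, same edgeR test) and than LPS lungs (log2FC -0.68, SE 0.256, adjusted p = 0.044, same edgeR test). The call against LPS was lost in 12 of 19 alternatives. Those include leaving out control mouse 1 (-0.68), 2 (-0.68) or 4 (-0.70), LPS mouse 1 (-0.48) or 6 (-0.65), or dual-treated mouse 2 (-0.46), and its adjusted p ranged from 0.00337 to 0.317.

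*Pdpn* (ENSMUSG00000028583, chromosome 4, 142990871 to 143026143, minus strand) encodes podoplanin, a mucin-like glycoprotein of the apical membrane and the ligand of the platelet receptor CLEC-2. It had 132, 112 and 107 CPM in control mice 1, 2 and 4, 263, 241 and 167 in LPS mice 1, 6 and 7, and 100.2 and 97.6 in dual-treated mice 2 and 5. The LPS mice were above all others and the dual-treated mice below all others. *Pdpn* rose with LPS (log2FC 0.94, SE 0.164, adjusted p = 0.000727, edgeR quasi-likelihood test) and was lower in dual-treated than in LPS lungs (log2FC -1.18, SE 0.189, adjusted p = 0.000584, same edgeR test). Its dual-treated value against control was not called (log2FC -0.24, SE 0.183, adjusted p = 0.416, same edgeR test). This value was -0.33 without control mouse 4 and -0.15 without control mouse 1.

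*Spock2* (ENSMUSG00000058297, chromosome 10, 59942041 to 59971357, plus strand) encodes testican 2, a proteoglycan of the extracellular matrix. Control mice 1, 2 and 4 had 689, 631 and 603 CPM, LPS mice 1, 6 and 7 had 618, 417 and 389, and dual-treated mice 2 and 5 had 384 and 424. LPS mouse 1 lay within the control range, and the other treated mice were below it. *Spock2* was called lower with LPS (log2FC -0.43, SE 0.171, adjusted p = 0.0472, edgeR quasi-likelihood test) and with the dual treatment (log2FC -0.66, SE 0.195, adjusted p = 0.0466, same edgeR test). The LPS call was lost in 10 of 19 alternatives, among them RLE scaling in place of TMM (-0.40). Among the others were those without control mouse 1 (-0.38), 2 (-0.45) or 4 (-0.48) and without LPS mouse 6 (-0.34) or 7 (-0.30). Without LPS mouse 1 the value moved to -0.66, and its adjusted p over all alternatives ranged from 0.00095 to 0.789. Dual-treated and LPS lungs were not called different (log2FC -0.23, SE 0.193, adjusted p = 0.323, same edgeR test). That value rests on LPS mouse 1: it was -0.0013 without this mouse, -0.37 without LPS mouse 7, and -0.62 and called with LPS mice 6 and 7 both left out, with the adjusted p over all alternatives between 0.00873 and 1.

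*Hopx* (ENSMUSG00000059325, chromosome 5, 77234831 to 77263022, minus strand) encodes a small homeodomain protein that does not bind DNA and acts through partners such as SRF and HDAC2. It had 569.7, 496 and 487 CPM in control mice 1, 2 and 4, 559, 507 and 369.6 in LPS mice 1, 6 and 7, and 386 and 457 in dual-treated mice 2 and 5. The LPS mice overlapped both other groups, and the dual-treated mice lay below the control mice. *Hopx* was called in no comparison, with a log2FC of -0.11 with LPS (SE 0.160, adjusted p = 0.554, edgeR quasi-likelihood test) and unadjusted p of 0.5. The log2FC of the dual treatment was -0.30 against control (SE 0.180, adjusted p = 0.308) and -0.18 against LPS (SE 0.180, adjusted p = 0.402, same edgeR test). Against control it was -0.45 without dual-treated mouse 5 and -0.21 without dual-treated mouse 2. Against LPS it was -0.35 without LPS mouse 7 and -0.063 without LPS mouse 1. The noncoding gene Hopxos on the other strand shares 864 exonic bases, 38.9% of those of *Hopx*, and the strand setting of the counting is not given in the sources used here.

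**Figure D2:**
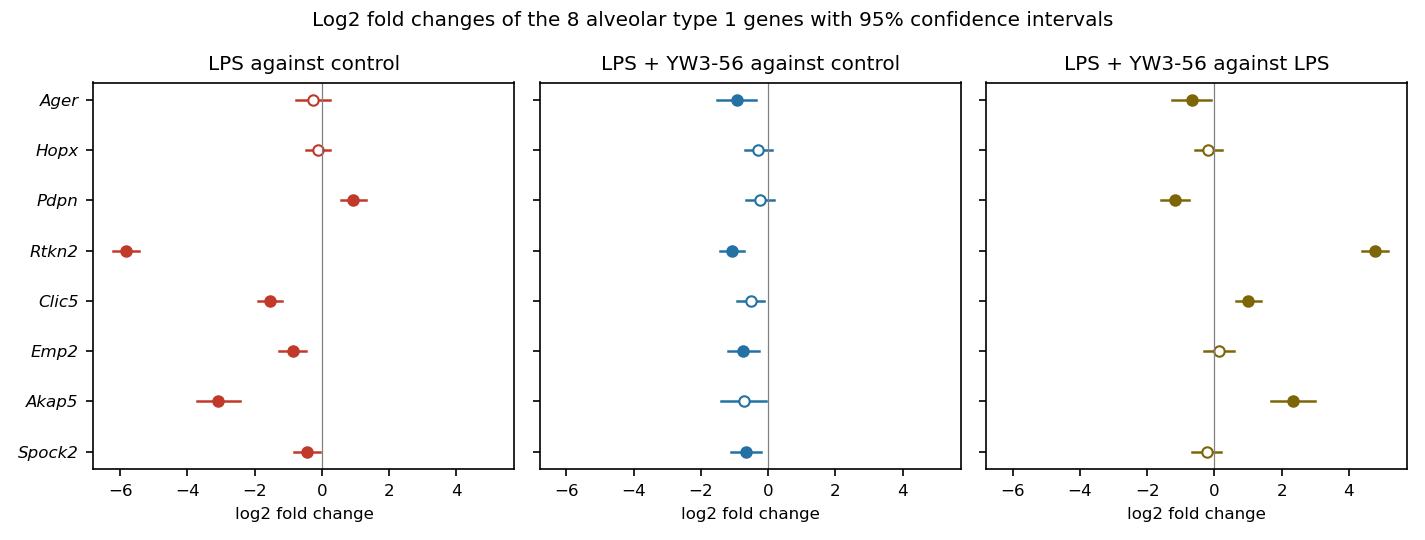
Fitted log2FC (horizontal axis) of the 8 genes in each comparison, with lines for 95% confidence intervals and filled points for an adjusted p under 0.05 (edgeR). *Rtkn2*, *Akap5* and *Clic5* lie left of 0 with LPS and right of 0 in dual-treated against LPS lungs, and *Pdpn* lies on the opposite sides.

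Of the 4 calls against control in dual-treated lungs, only that of *Rtkn2* was kept without any 1 control mouse or LPS mouse 6. With all mice the log2FC was -0.94 for *Ager*, -0.74 for *Emp2* and -0.66 for *Spock2*. Leaving out a control mouse or LPS mouse 6, which is in neither group compared, moved each value by less than its SE. *Ager* was no longer called without control mouse 1 (log2FC -0.92), 2 (-0.97) or 4 (-0.95), LPS mouse 6 (-0.94) or dual-treated mouse 2 (-0.73). *Emp2* was lost without the same mice, at -0.76, -0.75, -0.75, -0.74 and -0.52. *Spock2* was lost without them too, at -0.61, -0.68, -0.73, -0.66 and -0.63, and also without dual-treated mouse 5, at -0.77. So 1 of the 8 genes, *Rtkn2*, was called when any of the first 5 was left out, beside 6.24% to 15.7% of all tested genes. Over all alternatives the adjusted p ran from 0.000459 to 0.336 for *Ager*, from 0.000816 to 0.6 for *Emp2* and from 0.00276 to 0.818 for *Spock2*. DESeq2 called 6 genes, *Clic5* and *Akap5* included, beside 11.7% of the 31999 genes to which it gave a p-value. These include low-count genes that the edgeR filter left out, so this share does not compare directly with the 16.1% of edgeR. All signs were the same in these fits.

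The scaling of the libraries also bears on the smaller values. TMM scales libraries so that most genes agree, yet 66.5% of tested genes were called with LPS and 59.1% in dual-treated against LPS lungs. The TMM factors were 0.810 to 0.930 in LPS mice and 1.06 to 1.11 in the other mice. With library size in place of TMM, the median of all tested genes moved by -0.28 in LPS against control and by 0.32 in dual-treated against LPS lungs. The share of higher genes among all calls moved from 49.0% to 35.6% and from 53.6% to 71.0% in these comparisons. *Ager* (-0.56) and *Hopx* (-0.41) were then called lower with LPS, and relative to the median of all genes they were at -0.27 and -0.12. In dual-treated against LPS lungs the signs of *Hopx* (0.15) and *Spock2* (0.11) turned, though neither was called, and relative to that median they were -0.23 and -0.27. *Ager* lost its call there (-0.34, or -0.72 relative to the median), and *Emp2* gained one (0.46, or 0.077 relative to the median). *Rtkn2*, *Akap5*, *Clic5* and *Pdpn* kept sign and call in both of these comparisons. With upper quartile scaling *Ager* also lost its call in dual-treated against LPS lungs (-0.59, or -0.74 relative to the median). With RLE scaling *Spock2* lost its call with LPS (-0.40, or -0.42 relative to the median).

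Within the LPS group and within the dual-treated group, mice differed in the same direction for most of the 8 genes. LPS mouse 1 had the highest value of its group for 8 of 8 genes (37.6% of all tested genes), and LPS mouse 7 the lowest for 7 of 8 (36% of all tested genes). Dual-treated mouse 5 was above mouse 2 for 7 of 8 genes, *Pdpn* being the exception (51.5% of all tested genes). LPS mice 6 and 7 also held transcripts of squamous epithelium: 12 genes of a list of 13 were tested, and their sum was 717 and 2021 CPM there, against 4.27 in LPS mouse 1 and 14.7 to 19.7 in control mice. The sum in dual-treated mice was 16.4 and 28.9 CPM. *Krt13* was the most abundant gene on the mean over the 8 mice, which rests on LPS mice 6 and 7, and *Sprr3* and *Dsg3* were at 0 in each control mouse and in LPS mouse 1. Of these genes 7 were higher with LPS (32.6% of all tested genes) and 0 lower (33.9%). Without LPS mouse 1 it was 11 higher, and without LPS mouse 6 or 7 it was 2. The skeletal muscle list behaved alike, with 429 and 1125 CPM in LPS mice 6 and 7, 17.5 in LPS mouse 1 and at most 19.6 in any other mouse. Its most abundant gene in those 2 mice was *Acta1*, and 8 of 8 tested genes were higher with LPS. With LPS mice 6 and 7 both left out, the LPS log2FC was -5.53 for *Rtkn2*, -2.66 for *Akap5*, -1.25 for *Clic5*, -0.61 for *Emp2* and 1.18 for *Pdpn*, all still called. *Spock2* was then at -0.046, *Ager* at 0.094 and *Hopx* at 0.12, none called.

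A further list of 20 other genes of type 1 cells was examined in the same way. With LPS 15 of the 20 were lower (33.9% of all tested genes) and 2 higher (32.6%), with a median log2FC of -0.55. *Ndnf*, a secreted protein, had the lowest log2FC (-3.10, SE 0.245), followed by *Cav1*, which forms caveolae and is also abundant in endothelium (-3.02, SE 0.318). The water channel *Aqp5*, a standard marker of the type 1 surface, had 437, 426 and 436 CPM in control mice, 132, 136 and 129.7 in LPS mice and 345 and 423 in dual-treated mice, and was called in both comparisons with LPS. *Gprc5a* (0.85) and the sodium channel subunit *Scnn1g* (0.70) were the genes that rose. In dual-treated lungs 6 of 20 were below control (7.02% of all tested genes) and 0 above (9.13%), among them *Igfbp2* (-1.37), the laminin chain *Lama3* (-1.23) and *Limch1* (-0.87). Without control mouse 1 or 2, 2 and 3 were below control, without dual-treated mouse 2 it was 1 with 1 above, and without dual-treated mouse 5 it was 11. In these fits 9.70%, 8.43%, 6.24% and 16.4% of all tested genes were called. Against LPS 9 were higher (31.7% of all tested genes), led by *Wnt7a* (3.07), and 4 lower (27.4%), with *Igfbp2* the lowest (-1.20). The shares of all tested genes for each comparison and direction apply equally to the lists below.

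**Figure D3:**
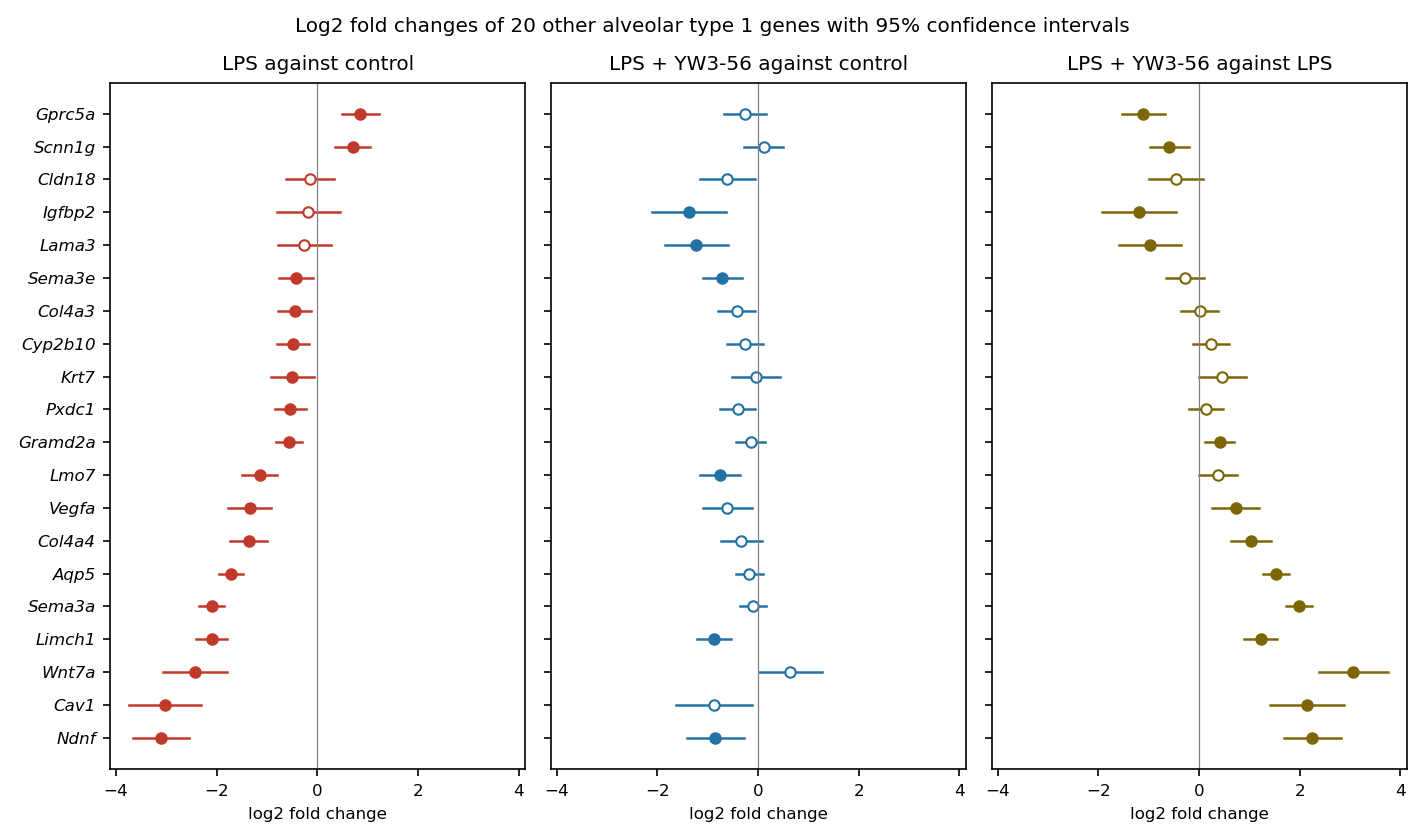
Fitted log2FC (horizontal axis) of 20 other genes of type 1 cells, ordered by their value with LPS, with lines for 95% confidence intervals and filled points for an adjusted p under 0.05 (edgeR). *Gprc5a* and *Scnn1g* lie right of 0 with LPS, and *Ndnf* and *Cav1* farthest to the left.

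Of 14 genes that regulate type 1 cells or report YAP and TAZ activity, 5 were lower (33.9% of all tested genes) and 5 higher (32.6%) with LPS. *Nkx2-1* had 317, 306 and 309 CPM in control mice, 61.3, 63.4 and 53.9 in LPS mice and 234 and 206 in dual-treated mice. It fell with LPS (log2FC -2.38, SE 0.105) and dual-treated lungs exceeded LPS lungs (1.88, SE 0.111), and the same held for *Ajuba* (-2.22 and 1.82) and *Foxa2* (-1.77 and 0.95). *Foxa1* (0.98 and -1.52) and *Gata6* (0.43 and -0.90) moved the other way in both comparisons. *Ccn1*, a target of YAP, rose with LPS by 2.30 (SE 0.444), with 1048 CPM in LPS mouse 1 and 261 and 384 in mice 6 and 7. *Ankrd1* (1.33) and *Ccn2* (0.71) were also called higher with LPS, while *Amotl2* (-0.69) and *Yap1* (-0.32) were called lower. In dual-treated lungs 9 of the 14 were below control (7.02% of all tested genes) and 0 above (9.13%), including *Yap1* (-0.60), *Wwtr1*, which encodes TAZ (-0.64), and *Tead1* (-0.77). The 9 became 5 without control mouse 1 and 5 without control mouse 2. Against LPS 3 were higher (31.7%) and 7 lower (27.4%).

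Of 10 genes linked to the passage from type 2 to type 1 cells, 5 rose and 3 fell with LPS. The cell cycle inhibitor *Cdkn1a* rose most (3.23, SE 0.244), then *Cldn4* (1.96), *Sfn* (1.92), *Hbegf* (1.58) and the integrin chain *Itgb6* (1.46). The keratins *Krt8* (-0.56), *Krt18* (-0.58) and *Krt19* (-1.61) fell. Each of these 8 genes was called in the opposite direction in dual-treated against LPS lungs, as were 75% of all genes called with LPS, the 2 comparisons sharing the LPS mice. In dual-treated lungs against control 1 of 10, *Areg* (-2.05), was called. That call of *Areg* was lost without control mouse 4 and without dual-treated mouse 2 or 5, and without LPS mouse 7 the count was 2.

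Among 14 binding partners of the 8 proteins, 5 were higher and 5 lower with LPS. *S100a9*, a ligand of RAGE made by neutrophils, rose by 4.38 (SE 0.293), and *Hdac2*, a partner of HOPX, fell by 1.30 (SE 0.114). The membrane linker *Msn*, at 737 to 984 CPM over the 8 mice, was the most abundant on their mean, but *S100a9* was above it in the LPS mice and dual-treated mouse 5. In dual-treated lungs 4 were above control and 2 below, or 3 and 0 without dual-treated mouse 2. Against LPS 3 were higher, led by *Prkar2b*, a subunit of the kinase that AKAP5 anchors (1.04), and 3 lower, led by *Cd44*, a partner of podoplanin (-0.99).

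Markers of neighbouring cells moved as well, and their part in the results for the 8 genes was not tested. Summed over the 8 genes, control mice had 6687, 6369 and 6488 CPM, LPS mice 5170.0, 4214 and 3108, and dual-treated mice 3334 and 4543. For type 2 cells, 8 of 10 genes were lower and 1 higher with LPS, and the list summed to 33394 to 41656 CPM in control, 17467 to 29614 in LPS and 22184 and 32672 in dual-treated mice, with *Sftpc* the most abundant in each mouse. Against LPS 5 of them were higher in dual-treated lungs. For epithelium in general, 5 of 8 genes were higher and 3 lower with LPS, and the sum was 965 to 1043 CPM in control, 1506 to 1953 in LPS and 793 and 954 in dual-treated mice. *Cdh1* led this list in LPS mice and *Krt8* in the other mice. For capillary endothelium, 8 of 10 genes were lower with LPS and 6 higher in dual-treated against LPS lungs, with sums of 3802 to 4313, 1551 to 2066 and 3088 and 3539 CPM in control, LPS and dual-treated mice. Its most abundant gene was *Cdh5* on the mean over the 8 mice, which among single mice held only for the LPS mice. For lymphatic endothelium, which makes podoplanin, 2 of 7 genes were higher and 1 lower with LPS (2 and 4 without LPS mouse 7), and the sums of 380.3 to 497 CPM in control, 1645 to 2173 in LPS and 614 and 364 in dual-treated mice were mostly *Lyve1*. Against LPS 2 of 7 were lower and 0 higher in dual-treated lungs. For mesothelium, which also makes podoplanin, 5 of 6 genes were lower with LPS, and the sums were 749 to 824 CPM in control, 398 to 527 in LPS and 649 and 939 in dual-treated mice. Against LPS 4 of 6 were higher and 0 lower in dual-treated lungs. *Msln* was its most abundant gene on the mean over the 8 mice, but *Krt19* was above it in 2 control mice and both dual-treated mice. In dual-treated lungs against control, 4 of 10 capillary genes were lower and 1 higher, beside 7.02% and 9.13% of all tested genes. In that comparison 2 of 8 general epithelial genes and 1 of 7 lymphatic genes were lower, and 0 were higher. For type 2 cells and mesothelium 0 genes were called there. None of these lists had all its genes at 0 in any group.

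For each gene, the patterns closest to it over the 8 mice were sought among 12162 tested genes with a mean of at least 5 CPM, by the root mean square (RMS) difference of log2 CPM after centring. *Cav1* was nearest to *Akap5* (RMS 0.139), followed by *Rab6b* and *Cavin2*, where the median gene was at 1.45. *Gja5*, *Ushbp1* and *Rem1* were nearest to *Rtkn2* (RMS 0.310 to 0.321, median 2.67). *Nacc2* was nearest to *Clic5* (0.0718), *Rnf150* to *Emp2* (0.0861), *Car2* to *Ager* (0.150), *Gm9791* to *Pdpn* (0.0769), *Gpihbp1* to *Spock2* (0.0799) and *Nudt3* to *Hopx* (0.0566). Among the 8 genes themselves, *Hopx* and *Spock2* were closest (0.206) and *Pdpn* and *Rtkn2* farthest apart (3.12).

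The 250 bases before the transcription start are shown for the genes that fell with LPS and were higher in dual-treated lungs, *Rtkn2*, *Akap5* and *Clic5*, and for *Pdpn*, which moved the other way. They were read from GRCm39 at chr10:67815140-67815389 (plus strand), chr12:76371363-76371612 (plus), chr17:44445409-44445658 (plus) and chr4:143026144-143026393 (minus), with starts from GENCODE M39. Capitals mark matches on either strand to the motifs of TEAD (GGAATG), NKX2-1 (CAAGTG), AP-1 (TGANTCA) and the GC box (GGGCGG), the last of which was added after the sequences had been read.
Rtkn2: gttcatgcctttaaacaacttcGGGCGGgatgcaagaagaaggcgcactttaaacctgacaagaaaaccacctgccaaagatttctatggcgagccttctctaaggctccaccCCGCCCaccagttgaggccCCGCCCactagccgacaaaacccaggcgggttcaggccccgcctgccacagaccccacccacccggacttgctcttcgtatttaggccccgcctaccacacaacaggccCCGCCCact
Akap5: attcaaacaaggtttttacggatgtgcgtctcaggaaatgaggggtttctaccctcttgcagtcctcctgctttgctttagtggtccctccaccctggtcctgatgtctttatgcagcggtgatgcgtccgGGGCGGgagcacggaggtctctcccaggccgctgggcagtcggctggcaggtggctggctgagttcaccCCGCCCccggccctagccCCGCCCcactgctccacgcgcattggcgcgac
Clic5: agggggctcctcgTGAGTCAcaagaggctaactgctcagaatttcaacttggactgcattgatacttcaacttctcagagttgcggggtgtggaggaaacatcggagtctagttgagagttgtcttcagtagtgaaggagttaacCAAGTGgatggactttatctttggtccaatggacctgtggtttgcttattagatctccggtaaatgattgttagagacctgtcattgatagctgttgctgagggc
Pdpn: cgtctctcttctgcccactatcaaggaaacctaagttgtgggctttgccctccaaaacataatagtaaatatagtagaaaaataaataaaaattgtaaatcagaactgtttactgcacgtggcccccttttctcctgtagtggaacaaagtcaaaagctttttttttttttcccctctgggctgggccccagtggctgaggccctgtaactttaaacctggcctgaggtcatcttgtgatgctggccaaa
Of all 18487 promoters of tested genes read this way, 11.9% held the TEAD letters, 11.5% those of NKX2-1, 5.33% those of AP-1 and 41.7% the GC box. Of the 8 genes, 3 held the GC box (*Rtkn2*, *Akap5* and *Emp2*), 1 the letters of NKX2-1 and of AP-1 (*Clic5*), and 0 those of TEAD. The window of *Hopx* (chr5:77243146-77243395, minus) differs from the others in that the start used lies inside the gene, and it covers 66 exonic bases of *Hopx* and 250 of Hopxos. A motif of NF-kB was also searched and then dropped, and no count for it is given. A match describes the letters of this window and is not a measured site.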

How the data were processed

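RNA-seq of tissue from 1 side of the lung of 8 mice was analysed, 3 control, 3 LPS and 2 dual-treated, grouped by their labels. Per the submitters' processing notes and the methods, the authors checked reads with FastQC 0.11.9, trimmed them with Trim Galore, aligned them to GRCm39 with HISAT2 2.2.1 and counted them per gene with featureCounts 2.0.1. The values the authors deposited are raw counts, not normalized. The annotation release, strand setting and handling of multi-mapping reads are not given in the sources used here. Symbols, exon lengths and positions came from GENCODE M39, in which 54749 of 55416 identifiers were found, and the 667 others held 0.0533% of counts.

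The analysis used edgeR 4.0.16 under R 4.3.3. Low genes were filtered with filterByExpr, libraries were scaled by TMM, and 1 group factor was fitted to the 8 libraries for a quasi-likelihood test with 5 residual degrees of freedom. P-values were Benjamini-Hochberg adjusted over 18560 genes. The code was tested on simulated counts. SE was taken from the log2FC and its F statistic. The 95% intervals used SE and the total degrees of freedom of the test, which also draw on the spread of the other genes. Replicates in each group differed by more than counting noise, so none was counted as a duplicate. Total counts of 19061949 to 20908608 limit precision only for low values such as *Rtkn2* in LPS mice.

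Genes named are the 8 members, any gene of the lists of other type 1 genes, regulators and transition genes, the most abundant, highest and lowest called gene of each other list, up to 2 defining genes at or near 0, and the nearest patterns. The members, lists, and the alternative without LPS mice 6 and 7 were chosen with earlier results of these data known. The promoter motifs were chosen after the counts had been analysed. *Lor* was not matched and was left out of the squamous list. Alternatives were DESeq2 1.42.0, other scalings and filters, the compared groups only, other call rules (among them the thresholds of the study's methods, applied to unadjusted edgeR p-values) and leaving out mice.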

Additional observations from a re-analysis of the deposited data

How the results depend on the processing

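The log2FC and calls of the 8 genes, the calls in the other lists, and the share called and median of all tested genes were recomputed under 19 alternatives. Level orders, counts without overlap, nearest patterns, promoter motifs and the share of genes called in opposite directions were not. Of the calls for the 8 genes, those of *Rtkn2* in the 3 comparisons, of *Akap5* and *Clic5* in LPS against control and in dual-treated against LPS lungs, and of *Pdpn* in dual-treated against LPS lungs were kept in all 19. With LPS against control, 3 genes passed a fold change over 2 with an unadjusted edgeR p under 0.05 (40.1% of all tested genes), and 3 passed an adjusted p under 0.05 with a fold change over 2 (39.2%). In dual-treated against control lungs 1 gene passed either rule (10.5% and 7.15% of all tested genes), and 1 passed a test against a fold change of 1.5 (4.20%), since these rules ask for larger changes. When each mouse was left out in turn, the number of genes called ranged from 5 to 6 in LPS against control, from 1 to 5 in dual-treated against control and from 4 to 5 in dual-treated against LPS lungs. The share of all tested genes called ranged over the same fits from 59.7% to 65.1%, from 6.24% to 19.7% and from 44.2% to 58.2%. Where this, or leaving out LPS mice 6 and 7, left 1 mouse in a group, that mouse was assumed to vary like the other groups.

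Signs turned for values that were not called. In LPS against control *Hopx* ranged from -0.23 to 0.053 when each mouse was left out, the highest without LPS mouse 7, and was at 0.12 without LPS mice 6 and 7, and *Ager* at 0.094 without both. In dual-treated against LPS lungs *Emp2* ranged from -0.20 (without dual-treated mouse 5) to 0.35, with -0.019 without LPS mouse 7, and was at -0.14 without LPS mice 6 and 7, and with library size as the scaling *Hopx* was at 0.15 and *Spock2* at 0.11. The cause was not tested. No paired analysis was possible, since separate mice were divided at random into the groups and the labels give no pairs. A mouse number shared by 2 groups was not read as a pair.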

Other observations

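Cell types farther from the alveolar surface were measured by lists of the same kind. Of all tested genes, 33.9% were lower and 32.6% higher with LPS, 9.13% were above control in dual-treated lungs, and against LPS 31.7% were higher and 27.4% lower there. For fibroblasts, 4 of 8 genes were lower and 2 higher with LPS, and *Inmt*, the most abundant in control and dual-treated mice, fell by 4.24 on the log2 scale and was higher by 3.40 in dual-treated than in LPS lungs. All 9 neutrophil genes were higher with LPS, and in dual-treated lungs 6 of 9 were above control. Against LPS 3 were higher and 3 lower, with *Camp* the lowest at -2.96. Of 9 macrophage and monocyte genes, 1 was higher and 3 lower with LPS, while in dual-treated lungs 6 were above control and 6 above LPS. Of 9 lymphocyte genes, 4 were lower and 1 higher with LPS (2 and 0 without control mouse 1 or LPS mouse 6, 3 and 0 without control mouse 4), and *Cd79a*, the most abundant on the mean over the 8 mice but not in LPS mice or dual-treated mouse 5, had 28.6 CPM in dual-treated mouse 2 and 6.50 in mouse 5. The part of these cells in the values of the type 1 genes was not tested.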
